A study of Mus musculus with 4 samples.

Results

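The genes described here are 38 interferon response genes, named by symbol in a rule that uses no measured value, among the 24322 gene symbols for which FPKM were deposited, that is, mapped fragments scaled to the length of a gene's exons and to the size of the library. They cover the transcription factors that carry the interferon signal, sensors of viral nucleic acid, the ISG15 system, antiviral effectors, guanylate-binding proteins, the peptide transporter of antigen presentation, and a galectin with a galectin-binding protein. In the Müller glial libraries of this study 23 of the 38 had a mean FPKM of at least 1 and were tested for a difference between genotypes. The other 15 are reported apart with no test, and 1 of these, *Mx1*, was at 0 in every library.

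The RNA came from mTFP-positive retinal cells purified by FACS from 4 mice, 1 mouse per library. The control mice, numbers 7984 and 3911, carried Raxflox/WT with the transgene Rlbp1-CreERT2 and the reporter allele R26-CAG-LoxP-mTFP1, and the *Rax* iCKO mice, numbers 7983 and 3914, carried Raxflox/flox with the same transgene and reporter. All 4 were on a background labeled 129S6, all carried Cre and the mTFP1 reporter, and all received tamoxifen at P4, with the retinas taken at P14. Cre was driven by a fragment of the promoter of *Rlbp1*, a gene of Müller glia and of the retinal pigment epithelium, so the comparison is of cells with 1 floxed allele and cells with both alleles floxed in which Cre had acted.

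Type I interferons bind the receptor Ifnar1/Ifnar2 and, through Jak1 and Tyk2, lead to a complex with Stat2 and Irf9 that binds the interferon-stimulated response element (ISRE) of its target genes. Interferon gamma acts through Ifngr1/Ifngr2 on genes that hold the gamma-activated sequence (GAS). Both signals use Janus kinases and are restrained by Socs proteins, and in the retina Müller glia and microglia can both respond to them.

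The FPKM of *Rax* were 189 and 181 in the controls and 111 and 98.4 in the *Rax* iCKO libraries, a log2 fold change of -0.82 in the direction of the genotype labels (exact permutation test, two-sided, p = 0.33, the smallest value that 2 mice against 2 can give). In limma its adjusted p was 1.0, and it was 0.0223 in a fit blocked by mouse-number run (7983 with 7984, 3914 with 3911). Every Müller glial marker of a list of 12 was present in every library, with summed FPKM of 16052 and 12538 in the controls and 10751 and 10926 in the *Rax* iCKO libraries, and *Rlbp1*, *Apoe*, *Vim* and *Car2* were below both controls in both. The mapped reads, estimated from the steps of low values, numbered 9260000 to 12710000 per library. At that depth 1 FPKM of a transcript of 2 kb rests on 16.7 to 22.9 reads. Markers of other cells were present as well, and for 7 of 8 rod markers each *Rax* iCKO library was under each control, with summed FPKM of 1367 and 1345 in the controls against 913 and 791. So were 2 of 5 astrocyte markers, *Pdgfra* and *Aldh1l1*, whereas 3 of 6 bipolar cell markers, *Grm6*, *Trpm1* and *Prkca*, were above both controls. Over all genes tested 14.1% were below and 15.4% above both controls. Retinal pigment epithelium markers were low, with summed FPKM of 1.59 and 1.90 in the controls and 2.83 and 1.81 in the *Rax* iCKO libraries and *Rpe65* and *Lrat* at 0 in at least 1 library, and *Tyr* and *Tyrp1* were above and *Best1* below both controls. The part of these cells in the members' values was not tested. In bulk libraries such as these, fewer cells of a type and less RNA per cell cannot be told apart.

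Promoters of the members share sequence that was not used to choose them. Of the 29 members with an entry among RefSeq promoters of GRCm38.p6 (250 bases before to 50 after the start of transcription), 17 held the ISRE core GAAANNGAA on either strand. That is 58.6%, whereas the share over all 27025 genes with a promoter was 9.76%. An overlapping spelling of the same element, AANNGAAAC, was also in 17 members and in 6.61% of all genes. The GAS core TTCNNNGAA was in 8 members, *Irf1*, *Ifit2*, *Gbp7*, *Eif2ak2*, *Adar*, *Samhd1*, *Ifi35* and *Bst2*, a share of 27.6% against 9.55% of all genes. The homeodomain core TAATTA was in 0 of the 29 (exact 95% interval 0.0 to 11.9%) and in 6.12% of all genes, a share within that interval. The site that the paper predicts for Rax is the shorter TAATT, which was not counted here. These are matches of letters, not tested binding sites.

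The stretches around the ISRE core are shown for *Isg15* and *Ifit1*, the classical targets of the pathway, and for the 4 tested members whose libraries separated by genotype. Each runs 5′ to 3′ on the strand of its gene, in GRCm38.p6, and capitals mark every base of a match to GAAANNGAA or to its reverse complement.
Isg15, chr4:156200857-156200916, minus strand: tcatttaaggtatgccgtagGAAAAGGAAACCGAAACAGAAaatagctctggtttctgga
Ifit1, chr19:34640767-34640826, plus strand: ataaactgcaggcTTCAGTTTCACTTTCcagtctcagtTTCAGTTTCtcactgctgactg
Stat2, chr10:128270266-128270295, plus strand: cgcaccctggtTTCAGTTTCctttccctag
Eif2ak2, chr17:78882533-78882562, minus strand: tccgccggGAAAACGAAACAGAAgagaacc
Lgals9, chr11:78984890-78984919, minus strand: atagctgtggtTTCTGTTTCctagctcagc
Ddx58, chr4:40239804-40239833, minus strand: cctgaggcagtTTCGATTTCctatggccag
In *Isg15* 3 matches overlap in a single run within the stretch shown, positions -98 to -39 from the start, and in *Ifit1* 2 overlapping matches and a separate one lie within positions -122 to -63. The matches shown for *Lgals9*, *Ddx58* and *Eif2ak2* lie just after the start, and that of *Stat2* lies within positions -232 to -203. Holding the element did not go with a high level in these cells: the median of the mean FPKM was 1.41 over the 17 members with the ISRE core and 5.59 over the 12 whose promoter lacked it, and 10 of the 17 and 11 of the 12 reached a mean of 1 FPKM.

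No tested interferon response gene passed the test for a difference between control and *Rax* iCKO cells. With limma on log2(FPKM + 1), 0 of the 23 tested members had an adjusted p under 0.05, where 0.0243% of the 12363 genes tested did (3 genes), and 0 of 23 had an unadjusted p under 0.05, where 2.86% of all genes did. The lowest p of a member was 0.196 and the lowest adjusted p was 1.0. The log2 fold changes (*Rax* iCKO minus control) ran from -0.57 for *Ifi27* to 0.41 for *Lgals9*, with 11 above 0 and 12 below. Their median was -0.02, beside -0.004 for all genes tested.

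The data bound these differences only loosely. The 95% intervals of the 23 log2 fold changes extended 0.52 to 1.2 log2 units to either side of the estimate, with a median of 0.78, and together they reached from -1.76 to 1.47. For 12 members the whole interval lay within 1 log2 unit of no change, and for the other 11 it passed 1 log2 unit in at least one direction. These units are of log2(FPKM + 1), so for members at a few FPKM 1 unit is more than a 2-fold difference in FPKM.

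**Figure D1:**
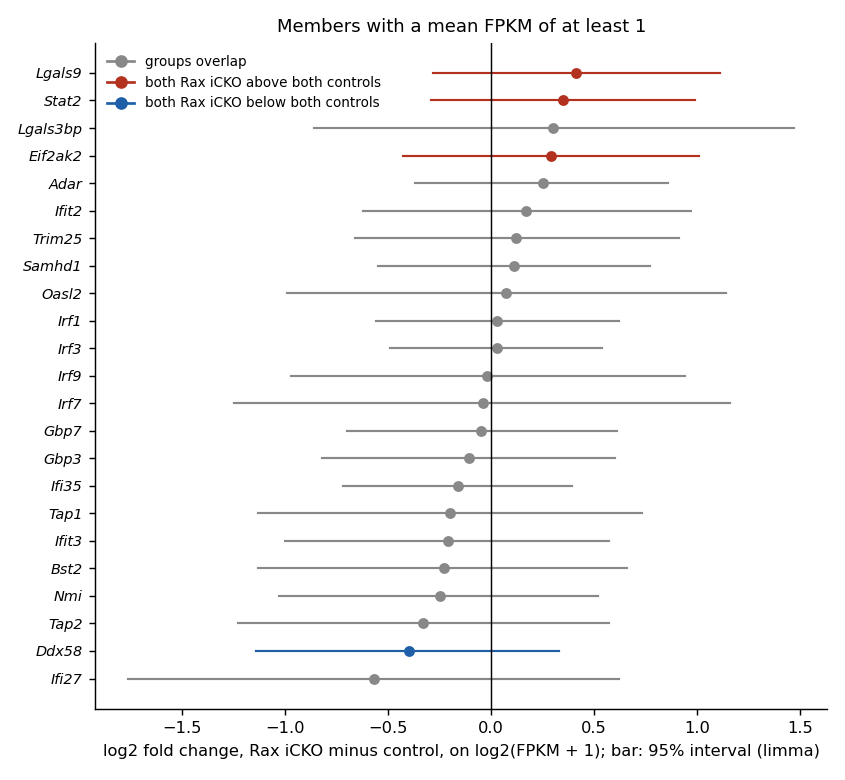
Log2 fold change, *Rax* iCKO minus control, on log2(FPKM + 1) for the 23 members with a mean FPKM of at least 1. Points are limma estimates and bars 95% intervals (2 mice per group); red marks the 3 members above both controls in both *Rax* iCKO libraries and blue the 1 below both. Every bar crosses 0.

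Both *Rax* iCKO libraries lay above both controls for 3 of the 23 members (13%), where 15.4% of all genes tested did so, and below both controls for 1 of 23 (4.35%), where 14.1% of all genes did. The 3 members were *Stat2*, *Eif2ak2* and *Lgals9* and the 1 was *Ddx58*. The first share is near that of all genes. When the low members were counted too, 3 of 37 lay above both controls (8.11%, where 13.7% of 17865 genes did) and 6 of 37 below both (16.2%, where 14.5% did), the added ones being *Rsad2*, *Xaf1*, *Ifih1*, *Gbp2b* and *Trim14*.

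*Stat2* (chr10:128270498-128292853, mm10) encodes a transcription factor of the type I interferon complex. Its FPKM were 5.31 and 3.98 in the controls (mice 7984, 3911) and 5.86 and 6.45 in the *Rax* iCKO libraries (mice 7983, 3914). The lower *Rax* iCKO library was close to the higher control, and the log2 fold change of 0.35 (SE 0.26, 95% interval -0.29 to 0.99) did not pass the limma test (adjusted p = 1.0).

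*Eif2ak2* (chr17:78850504-78882572) encodes the kinase PKR, which shuts down translation on binding double-stranded RNA. It was at 1.39 and 1.46 FPKM in the controls and 2.36 and 1.61 in the *Rax* iCKO libraries (mice 7983, 3914). Most of the difference came from mouse 7983, and the log2 fold change was 0.29 (SE 0.30, 95% interval -0.43 to 1.01, limma adjusted p = 1.0).

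*Lgals9* (chr11:78962979-78984924) encodes galectin-9, a secreted lectin that interferon gamma induces. It was at 1.70 and 1.83 FPKM in the controls and at 3.11 and 2.30 in the *Rax* iCKO libraries (mice 7983, 3914). The control values differed little and the groups did not overlap, but the log2 fold change of 0.41 (SE 0.29, 95% interval -0.28 to 1.11) did not pass the test (limma adjusted p = 1.0).

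*Ddx58* (chr4:40203777-40239825), which encodes the cytosolic RNA sensor RIG-I, was at 4.02 and 3.16 FPKM in the controls (mice 7984, 3911) and at 3.01 and 1.97 in the *Rax* iCKO libraries (mice 7983, 3914). The higher *Rax* iCKO value was just under the lower control. The log2 fold change was -0.40 (SE 0.30, 95% interval -1.14 to 0.33, limma adjusted p = 1.0).

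**Figure D2:**
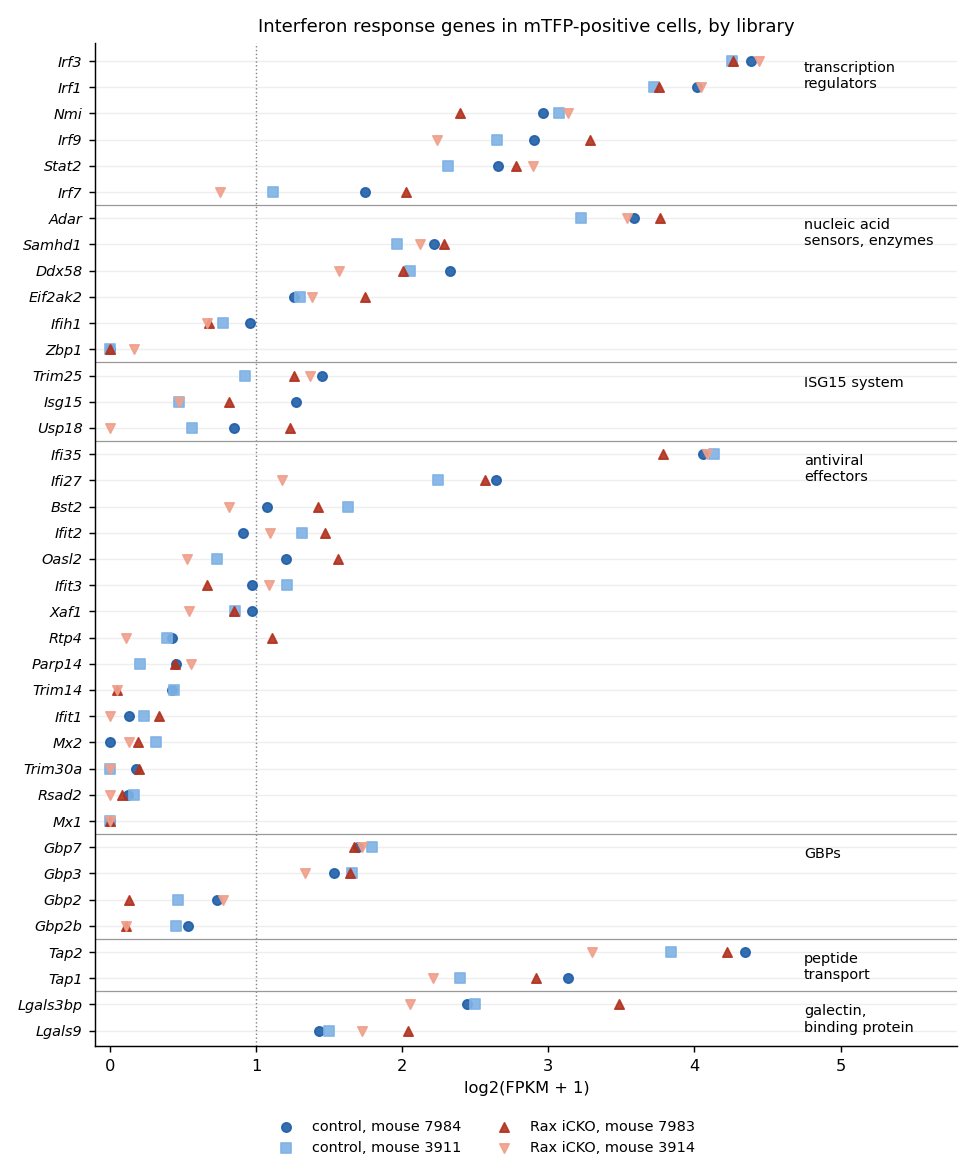
Level of all 38 members in the 4 libraries, as log2(FPKM + 1), grouped by role; circles and squares are the controls, triangles the *Rax* iCKO libraries, and the dotted line is 1 FPKM in a single library. The transcription factors *Irf3* and *Irf1* are the same in all libraries to within 1.27-fold, whereas *Irf7*, *Irf9*, *Oasl2* and *Lgals3bp* spread with mouse 7983 at the top and mouse 3914 at the bottom.

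The members' levels were modest for these libraries. The median of the mean FPKM over the 23 tested members was 3.45, against 12.8 over all genes tested, and 5 members had a mean of at least 10 FPKM. These 5 were *Irf3* (19.2), *Ifi35* (15.3), *Tap2* (14.8), *Irf1* (13.9) and *Adar* (10.6). The next in order were *Nmi* at 6.56, *Irf9* at 6.05, *Lgals3bp* at 5.62, *Tap1* at 5.56 and *Stat2* at 5.4. The member just inside the limit of 1 FPKM was *Ifit3*, with a mean of 1.0, and the member just outside was *Xaf1*, with 0.760.

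Among the transcription regulators, *Irf3* and *Irf1* were the steadiest. *Irf3*, which is activated by phosphorylation once a virus is sensed, was at 19.9 and 18.1 FPKM in the controls (mice 7984, 3911) and at 18.2 and 20.7 in the *Rax* iCKO libraries (mice 7983, 3914). *Irf1*, a factor induced by interferon gamma, was at 15.2 and 12.2 in the controls and at 12.5 and 15.5 in the *Rax* iCKO mice. The groups overlapped for both, and the highest library was no more than 1.27 times the lowest. *Nmi*, a partner of Stat proteins that interferon induces, was lowest in mouse 7983 at 4.26 FPKM and between 6.80 and 7.78 in the other libraries.

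*Irf7* and *Irf9* were as variable as those 2 were steady. *Irf7*, the factor that amplifies the type I response and is itself induced by it, was at 3.08 FPKM in *Rax* iCKO mouse 7983, 2.35 and 1.17 in the controls (mice 7984, 3911), and 0.686 in *Rax* iCKO mouse 3914. *Irf9*, the DNA-binding part of the complex with Stat2, took the same order at 8.75, 6.48, 5.28 and 3.71 FPKM. For both genes the 2 *Rax* iCKO mice were the extremes and the controls lay between them. The highest library was 4.49 times the lowest for *Irf7* and 2.36 times for *Irf9*.

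Of the 6 sensors and nucleic acid enzymes, 4 were tested. *Adar*, which edits adenosine in double-stranded RNA, was at 11.0 and 8.34 FPKM in the controls (mice 7984, 3911) and at 12.6 and 10.6 in the *Rax* iCKO libraries (mice 7983, 3914), and *Samhd1*, which degrades deoxynucleotides, was at 3.66 and 2.90 in the controls and at 3.88 and 3.36 in the *Rax* iCKO mice. In each the second *Rax* iCKO mouse fell between the controls. *Ifih1*, which encodes the RNA sensor MDA5, was under the limit at 0.945 and 0.708 in the controls and 0.597 and 0.585 in the *Rax* iCKO libraries, both under the controls. *Zbp1*, a sensor that can trigger necroptosis, was listed at 0 in 3 libraries and at 0.120 in mouse 3914.

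The ISG15 system attaches the ubiquitin-like protein Isg15 to other proteins. *Isg15* itself, among the most strongly induced genes of an interferon response, was at 1.42 and 0.388 FPKM in the controls and at 0.764 and 0.387 in the *Rax* iCKO libraries (mice 7983, 3914). The smallest read numbers that fit these values were 5 and 1 in the controls and 2 and 1 in the *Rax* iCKO libraries (multiples of them fit as well), so no order can be read from them. *Usp18*, the protease that removes Isg15, was at 1.35 in mouse 7983, 0.800 and 0.480 in the controls (mice 7984, 3911), and 0 in mouse 3914. *Trim25*, a ubiquitin ligase that acts on RIG-I, was tested and lay between 0.903 and 1.74 with the groups overlapping.

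Of the 15 antiviral effectors 6 were tested, and in all 6 the genotypes overlapped. *Ifi27*, a small mitochondrial protein that interferon induces, had the lowest log2 fold change of the tested members, -0.57: it was at 5.24 and 3.74 FPKM in the controls, 4.94 in *Rax* iCKO mouse 7983 and 1.26 in *Rax* iCKO mouse 3914. The first *Rax* iCKO value lay between the controls and the second was far under them, and the 95% interval of its log2 fold change, -1.76 to 0.62, reached lower than that of any other tested member. *Ifi35*, which binds Nmi, was nearly level at 12.8 to 16.6. *Bst2*, the tether that holds budding virus at the cell surface, was at 1.11 and 2.10 in the controls and 1.69 and 0.760 in the *Rax* iCKO mice.

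*Oasl2*, a member of the oligoadenylate synthetase family, was at 1.95 FPKM in *Rax* iCKO mouse 7983, 1.31 and 0.660 in the controls (mice 7984, 3911), and 0.439 in *Rax* iCKO mouse 3914, the order of *Irf7*. The Ifit proteins bind viral RNA. *Ifit2* lay between 0.879 and 1.78 and *Ifit3* between 0.589 and 1.32, and *Ifit1*, the classical member of the family, was at 0.261 in mouse 7983, 0.0966 and 0.177 in the controls and 0 in mouse 3914. *Ifit3* has a near copy in the genome, so its share of reads is uncertain.

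The remaining effectors were low. *Xaf1*, which promotes apoptosis, lay between 0.457 and 0.966 FPKM, and *Parp14*, an ADP-ribosyltransferase, between 0.153 and 0.472. *Rtp4* was at 1.16 in mouse 7983 and at 0.343, 0.314 and 0.0782 in mice 7984, 3911 and 3914. *Rsad2*, which encodes the antiviral enzyme viperin, did not exceed 0.120, *Mx2* did not exceed 0.243 and *Trim30a* did not exceed 0.148, and each was at 0 in at least 1 library. The dynamin-like GTPase *Mx1* was the member at 0 in all 4. Over the 14 low members above 0, mouse 3914 was the lowest library or at 0 for 8, and mouse 7983 was the highest for 4 and the lowest for 3. The share over all low genes was not counted. Of all 24322 symbols, 8720 were at 0 in mouse 3914, against 7870 to 8240 in the other libraries.

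The rule stated in the study, a change of more than 2-fold with p under 0.05, was applied here to FPKM as deposited, with no limit on low values, and is not the study's own selection. It picked 2 of the 37 members above 0 as lower in *Rax* iCKO cells (5.41%, where 1.02% of 17865 genes were picked), and 0 as higher (0.537% of all genes). Both were under 1 FPKM. *Trim14* (chr4:46505072-46536150), which encodes an adaptor of the mitochondrial antiviral signal, was at 0.340 and 0.358 FPKM in the controls (mice 7984, 3911) and at 0.0352 and 0.0357 in the *Rax* iCKO libraries (mice 7983, 3914). *Gbp2b* (chr3:142594816-142619179), a guanylate-binding protein induced by interferon gamma, was at 0.449 and 0.370 in the controls and 0.0808 and 0.0819 in the *Rax* iCKO mice. In both genes the 2 mice of each genotype were close together and the groups stood well apart, which is what the rule picks.

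These 2 differences rest on few reads. The fewest reads that could give these values were 13 and 10 in the controls and 1 and 1 in the *Rax* iCKO mice for *Trim14*, and 15 and 9 against 2 and 2 for *Gbp2b*. From these numbers, of which multiples fit as well, the ratio of *Rax* iCKO to control reads, per depth, was 0.102 for *Trim14* (exact 95% interval 0.012 to 0.41, counting error only) and 0.196 for *Gbp2b* (0.049 to 0.57). The 2 genes were picked from these same values, and the intervals pool the reads of both mice of a group. They are therefore no test of the difference. In limma without a limit on FPKM the log2 fold change was -0.38 for each (SE 0.09 for *Trim14* and 0.10 for *Gbp2b*), the unadjusted p was under 0.05 for both, where 3.49% of all genes had such a p in that fit, and neither passed adjustment (adjusted p = 1.0 for both). *Gbp2*, the neighbor and close paralog of *Gbp2b*, did not separate by genotype, at 0.662 and 0.382 in the controls and 0.0939 and 0.714 in the *Rax* iCKO libraries. How reads were split between these paralogs is not known.

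The other guanylate-binding proteins, large GTPases that attack membranes around pathogens, were expressed at a steady low level. *Gbp7* was at 2.24 and 2.47 FPKM in the controls and 2.19 and 2.30 in the *Rax* iCKO mice, the narrowest range of any tested member with a highest library 1.13 times the lowest. *Gbp3* was at 1.90 and 2.15 in the controls and 2.12 and 1.52 in the *Rax* iCKO mice. Neither separated by genotype.

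*Tap1* and *Tap2* form the transporter that carries peptides into the endoplasmic reticulum for class I antigen presentation, and they lie side by side on chromosome 17. *Tap2* was at 19.3 and 13.3 FPKM in the controls (mice 7984, 3911) and at 17.7 and 8.86 in the *Rax* iCKO libraries (mice 7983, 3914), and *Tap1* was at 7.80 and 4.27 in the controls and 6.56 and 3.63 in the *Rax* iCKO mice. Both had the same order of mice: the pair 7984 and 7983 on top and the pair 3911 and 3914 below, with the *Rax* iCKO mouse under the control in each pair. *Lgals3bp*, a secreted glycoprotein that binds galectins, was at 10.2 in *Rax* iCKO mouse 7983, 4.43 and 4.65 in the controls and 3.16 in *Rax* iCKO mouse 3914, so its mean was raised by 1 mouse.

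The 4 mouse numbers form 2 runs, 7983 with 7984 and 3914 with 3911, each with 1 mouse of each genotype. The labels do not say that a run is a litter or a batch. The *Rax* iCKO mouse was above the control for 12 of the 23 members in the first run and for 9 of 23 in the second, with median differences of 0.07 and -0.12 in log2(FPKM + 1). The sign was the same in both runs for 12 of 23 members, against 62.3% of all genes tested. *Lgals3bp* was 1.05 higher in the first run and 0.44 lower in the second (log2 difference -0.44), and *Ifi27* differed by -0.07 and -1.07.

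**Figure D3:**
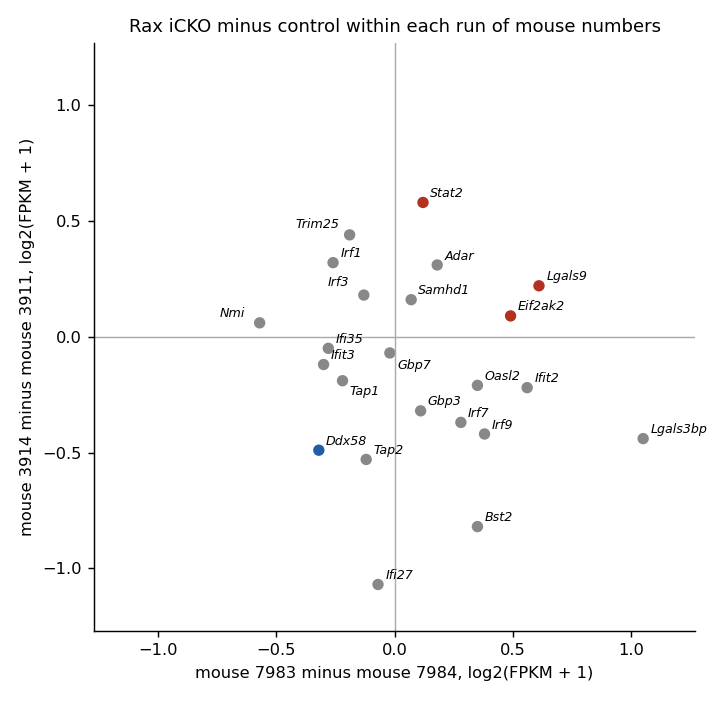
Difference in log2(FPKM + 1), *Rax* iCKO minus control, within the run of mice 7983 and 7984 (horizontal axis) and within the run of mice 3914 and 3911 (vertical axis), for the 23 tested members. Points in the upper right and lower left have the same sign in both runs, which holds for 12 of 23; red and blue are the members whose groups did not overlap.

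Several members separated by run and not by genotype, as did many of all genes tested. Mice 7983 and 7984 were both above mice 3911 and 3914 for 8 of 23 members (34.8%), *Irf7*, *Irf9*, *Oasl2*, *Adar*, *Samhd1*, *Ifi27*, *Tap1* and *Tap2*, where 26.8% of all genes were. They were both below for 4 (17.4%), *Ifit3*, *Gbp7*, *Ifi35* and *Nmi*, where 29.1% of all genes were.

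At the median, the members differed more between the 2 *Rax* iCKO mice than all genes did, and less between the controls. The median absolute difference in log2(FPKM + 1) between mice 7983 and 3914 was 0.37 over the members and 0.28 over all genes tested. Between the control mice it was 0.27 over the members and 0.35 over all genes. Mouse 7983 held the highest value for 9 of the 23 members and mouse 3914 the lowest for 10 of 23, where 21.2% and 22.1% of all genes did.

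Mouse 7983 was the highest and mouse 3914 the lowest of the 4 libraries for 4 of the 23 members (17.4%), *Irf7*, *Irf9*, *Oasl2* and *Lgals3bp*, where 5.29% of all genes tested took that order. Among the members under 1 FPKM *Usp18*, *Rtp4* and *Ifit1* took it too. This order was singled out after the values had been seen, so the counts describe these 4 libraries. The 2 extremes are both *Rax* iCKO, and the log2 fold changes between genotypes were -0.04 for *Irf7*, -0.02 for *Irf9*, 0.07 for *Oasl2* and 0.30 for *Lgals3bp*.

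Microglial markers took the same order. Of 13 microglial markers 11 were highest in mouse 7983 and lowest in mouse 3914, and the other 2, *P2ry12* and *Aif1*, were also lowest in mouse 3914. Their summed FPKM were 134 and 23.1 in the *Rax* iCKO libraries (mice 7983, 3914) and 81.2 and 87.8 in the controls (mice 7984, 3911), and no marker of the list was at 0 in any library. *Csf1r*, the receptor that microglia depend on, was at 10.8, 5.21, 3.25 and 0.467 FPKM in mice 7983, 7984, 3911 and 3914, and *C1qb* was at 24.4, 12.9, 14.6 and 4.74. Their part in the levels of *Irf7*, *Irf9*, *Oasl2*, *Lgals3bp*, *Usp18*, *Rtp4* and *Ifit1* was not tested.

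**Figure D4:**
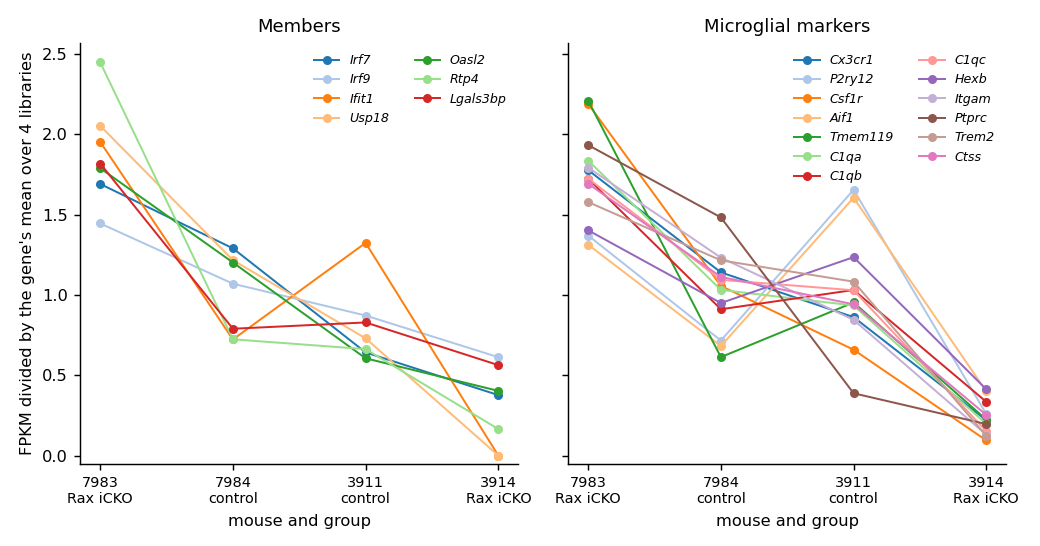
FPKM divided by the gene's mean over the 4 libraries, for the 7 members highest in mouse 7983 and lowest in mouse 3914 (left, chosen for that order) and for all 13 microglial markers (right). Lines join the values of a gene across separate mice and stand for no sequence in time; on the right 11 of 13 markers take the same order as the members.

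The other marker lists did not take that order in their sums, although *Lyz2* (21.7, 7.61, 6.92 and 4.39 FPKM in mice 7983, 7984, 3911 and 3914) and *Cd68* (5.53, 2.06, 3.60 and 0.175), which macrophages share with microglia, did. Single genes of 2 other lists took it as well, the amacrine markers *Gad1* (4.96, 2.75, 2.31 and 0.991) and *Slc6a9* (3.86, 3.63, 2.59 and 2.38) and the pericyte marker *Rgs5* (1.65, 0.879, 0.737 and 0.534). Neutrophil and macrophage markers summed to 34.1 and 10.5 FPKM in the controls (mice 7984, 3911) and to 29.1 and 4.60 in the *Rax* iCKO libraries (mice 7983, 3914), with *S100a8* and *S100a9* highest in mouse 7984 (15.7 and 8.77), and these and *Ccr2* at 0 in at least 1 library. Endothelial markers summed to 471 and 237 in the controls and 391 and 249 in the *Rax* iCKO mice, nearly all of it *Kdr*, and *Cdh5*, *Tie1*, *Tek* and *Emcn* were at 0 in at least 1 library. Pericyte markers, mostly *Pdgfrb*, summed to 26.9 and 11.1 against 24.4 and 13.2, and amacrine markers, mostly *Pax6*, to 77.9 and 53.9 against 70.5 and 50. These 4 sums were higher in mice 7983 and 7984 than in mice 3911 and 3914, as were *Tap1*, *Tap2*, *Adar*, *Samhd1* and *Ifi27*. Within the endothelial list *Esam* ran the other way, at 4.18 and 5.34 in the controls against 4.48 and 6.36. The bipolar cell sum also ran the other way, at 2848 and 7646 in the controls against 3880 and 6219. So did *Ifit3*, *Gbp7*, *Ifi35* and *Nmi*. The part of these cells in the members' values was not tested.

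The rest of the pathway was read from lists of 137 other genes, of which 135 were in the files and 54 had a mean FPKM of at least 1. The ligands were nearly silent: 19 of 21 interferon genes were listed at 0 in all libraries, and *Ifnk* and *Ifnz* had a value in control mouse 7984 alone, at 0.254 and 0.0623 FPKM. The receptors of type I interferons and of interferon gamma were present, and of the receptor of type III interferons *Ifnlr1* was at 0.144 and 0 in the controls and 0.0833 and 0 in the *Rax* iCKO libraries, and *Il10rb* at 9.66 and 6.66 against 6.1 and 5.4, below both controls. *Ifngr1* was at 52.6 and 42.4 in the controls and 51.2 and 35.0 in the *Rax* iCKO libraries (mice 7983, 3914), *Ifngr2* was at 28.5 and 28.2 against 24.1 and 23.9, *Ifnar2* at 26.2 and 34.2 against 24.7 and 29.7, and *Ifnar1* at 12.6 and 10.2 against 14.9 and 9.81.

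*Jak1*, the kinase on both receptors, was at 35.3 and 30.1 FPKM in the controls against 37.0 and 32.6 in the *Rax* iCKO libraries, with the groups overlapping. The highest genes of the other lists also overlapped: *Irf2bp1* and *Mavs* in the list on the induction of interferon and its control, and *Ptpn2* and *Pias1* among the negative regulators. *Ptpn2*, a phosphatase of Jak and Stat proteins, was the higher of these at 34.1 and 36.1 against 31.8 and 36.1.

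Over the 54 tested genes of these lists, 0 had an adjusted p under 0.05, and 2 had an unadjusted p under 0.05 in limma, where 2.86% of all genes did, both with lower values in *Rax* iCKO cells. *Psmb8*, a subunit of the immunoproteasome whose gene lies beside *Tap1* and *Tap2*, was at 8.53 and 11.3 FPKM in the controls and 6.53 and 3.05 in the *Rax* iCKO libraries (mice 7983, 3914), a log2 fold change of -0.97 (SE 0.36, limma adjusted p = 1.0). *Plscr1*, a phospholipid scramblase with antiviral activity, was at 26.9 and 25.4 in the controls and 16.9 and 17.5 in the *Rax* iCKO mice, a log2 fold change of -0.58 (SE 0.20, limma adjusted p = 1.0). The values of *Plscr1* within a genotype were close together and those of *Psmb8* were not. With 1 library left out a group holds a single mouse, and such fits do not settle whether these 2 differences hold.

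The *Rax* iCKO pair lay below the control pair for 18 of the 54 genes, where 14.1% of all genes tested did, and above both for 3, where 15.4% did, and the median log2 fold change was -0.15. With 1 library left out, which leaves fewer values to separate, 22 to 33 of the 54 lay below, where 29.1 to 35.3% of all genes did, and 8 to 13 above, where 29.7 to 35% did (below: 33 without mouse 3911 and 29 without mouse 7983; above: 13 without mouse 7984, 8 without mouse 3911 and 10 without either other mouse). Of the 18 genes, 14 were among the 31 other interferon-stimulated genes, of which 2 lay above both controls, with a median of -0.23 and 24 of 31 log2 fold changes under 0. *Psmb9* and *Psmb10*, the other catalytic subunits of the immunoproteasome, were among the 14, together with *Parp9*, *Parp12*, *Cmpk2*, *Ube2l6* and *Irgm1* (chosen as examples after their values were seen), while the highest genes of that list, *Psme1* and *Psme2*, overlapped between genotypes. The 23 members, of which 1 lay below both controls, had a median of -0.02. The difference between the members and these genes was not tested. Rod markers (7 of 8) and Müller glial markers (4 of 12) were also below both controls, and microglial markers, like *Psmb8*, were lowest in mouse 3914, and their part in these lower values was not tested.

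**Figure D5:**
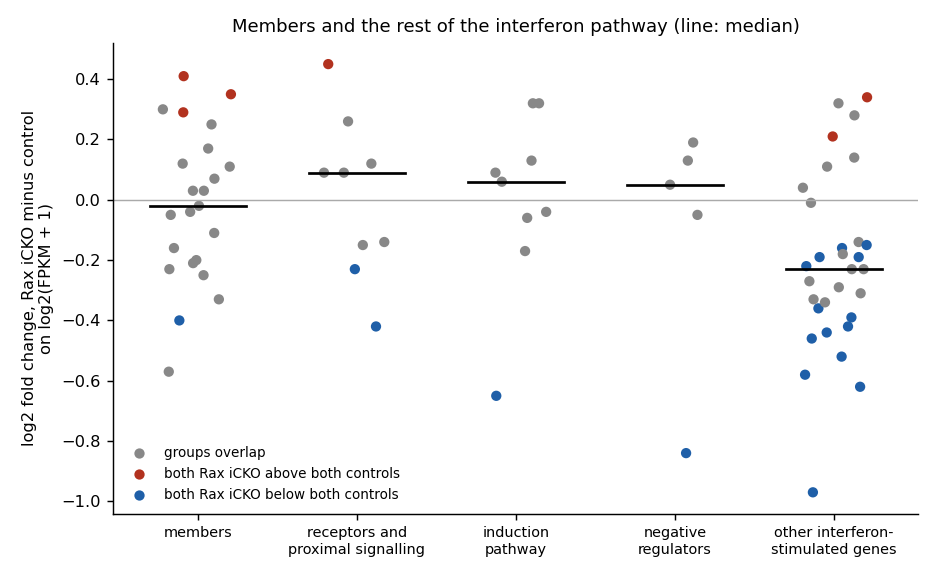
Log2 fold change, *Rax* iCKO minus control, on log2(FPKM + 1), of the tested members and of 4 lists of other interferon pathway genes. Each point is a gene with a mean FPKM of at least 1, the line is the median of the list, and colors mark genes whose groups did not overlap; the medians are -0.02 for the members and -0.23 for the other interferon-stimulated genes.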

How the data were processed

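mTFP-positive cells of 2 control and 2 *Rax* iCKO mice were sequenced, 1 library per mouse. RNA was isolated with the miRNeasy Micro kit per the labels (TRIzol LS in the paper's methods) and amplified with the SMART-Seq HT kit. The authors mapped reads to mm10 and deposited an FPKM value for each gene of each library. The submitters' processing notes name TopHat2 2.1.1, Bowtie2 2.2.8, SAMtools 0.1.18 and Cuffdiff 2.2.1, and the paper names other versions of TopHat, Bowtie2 and SAMtools. Use of strand in counting is not given in the sources used here. FPKM are relative to each library's own reads, so a change in abundant genes moves all others.

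The genotypes were tested in limma 3.58.1 under R 4.3.3 (trend, two-sided, no block), using log2(FPKM + 1) of the 12363 genes that averaged 1 FPKM or more, and p was adjusted by Benjamini-Hochberg over all of these. The exact permutation test used scipy 1.17.1. Levels of single libraries are FPKM as deposited. Depth was estimated from low values: among 2310 genes under 0.5 FPKM, 92.2% fitted whole reads (up to 20 reads, tolerance 0.06 reads, tighter for 1 read and looser for many), and 597 genes with known length gave the mapped reads of mouse 7983, with quartiles of 8570000 and 9440000. These read numbers entered no test. Lengths and coordinates came from GENCODE vM21 and promoters from RefSeq.

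The rule that names the members uses no measured value, but the members and the lists were chosen with earlier results of these data known. Every member is accounted for. Fold changes with errors are given for tested members whose groups did not overlap and for other pathway genes with an unadjusted p under 0.05. Of the other pathway genes the interferon receptors and the 2 highest of each list are also named, and 1 further gene is not reported here. P-values rest on 2 mice per group. Of the steps, only the limma fit was tested on simulated data, with larger changes than any tested member showed. It does not show what the fit can find among the members. Alternatives were another pseudocount, other limits on FPKM, quantile and median scaling, no variance trend, a block, the study's rule and leaving out each mouse. Proteins were not analysed here.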

Additional observations from a re-analysis of the deposited data

How the results depend on the processing

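The limits are the 2 mice per group, the depth of 9260000 to 12710000 reads and the unknown source of the runs of mouse numbers. No member passed an adjusted p of 0.05 in limma under any alternative. The number of members with an unadjusted p under 0.05 was 0, rose to 2 of 37 with no filter (*Gbp2b* and *Trim14*, where 3.49% of all genes had such a p), and was 0 to 1 when each library was left out (1.04 to 4.46% of all genes), with *Ifi27* past it without mouse 7983 and *Lgals3bp* without mouse 3914. With 1 library left in a group, its spread was assumed to be that of the other group. The study's rule, as applied here to FPKM, picked 2 members. The median log2 fold change of the members was -0.09 to 0.14 when each library was left out, and it was 0.14 without mouse 3914. The log2 fold changes ranged over 0.18 to 0.52 for *Stat2*, 0.11 to 0.47 for *Eif2ak2*, 0.26 to 0.57 for *Lgals9* and -0.62 to -0.19 for *Ddx58*; their direction when a library is left out is fixed by groups that do not overlap.

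The number of members above both controls was 3; it was 1 of 10 at a mean FPKM of at least 5 (15% of all genes), 5 of 23 after quantile normalization (16.1%) and 4 to 10 of 23 when each library was left out (29.7 to 35%; 8 without mouse 7984, 6 without mouse 7983, 10 without mouse 3914). The number below both controls was 1; it was 6 of 37 with no filter (14.5% of all genes), 0 of 10 at a mean FPKM of at least 5 (14.5%) and 5 to 10 of 23 when each library was left out (29.1 to 35.3%; 10 without mouse 7983, 6 without mouse 7984, 5 without either other mouse). The order with mouse 7983 highest and mouse 3914 lowest held for 4 members, for 2 of 10 at a mean FPKM of at least 5 (3.91% of all genes) and for 7 of 37 when every member above 0 was counted (5.91%, alternatives chosen after seeing the data). The number of other interferon pathway genes with an unadjusted p under 0.05 was 2. It was 4 of 105 with no filter (3.49% of all genes) and 4 of 54 after quantile normalization (3.30%). Leaving out a library leaves 1 mouse in a group, so no such count is given for these genes. Of these genes 8 to 13 lay above both controls and 22 to 33 below when each library was left out, also chosen after seeing the data, and with 1 library left in a group fewer values have to separate.

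Under a replicate block by the run of mouse numbers, 71 of 12363 genes passed an adjusted p of 0.05, but 0 members did (lowest adjusted p 0.332), and the other interferon pathway genes with an unadjusted p under 0.05 rose to 10 of 54 (18.5%), where 15.7% of all genes had such a p. The log2 fold change of *Rax* stayed at -0.82 with an adjusted p of 0.0223 under the block. The labels do not say what a run shares, so no main result uses the block.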
